A study of Mus musculus with 18 samples.

Results

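Mouse liver RNA sequencing was examined for 34 genes of cholesterol synthesis, uptake and efflux, chosen by gene symbol from the 56691 genes of the deposited table. Each symbol matched 1 row. The 34 genes are 19 enzymes of synthesis, 4 genes of SREBP2 and its regulators, and 11 genes of uptake, intracellular transport, efflux, esterification and oxysterol formation. They are not every gene of these pathways. The list was drawn up with earlier results of these data known, so shares of all genes beside its counts give scale and are not a test. All 34 had enough counts to be tested, among 14595 genes tested, but Ch25h only through its counts in IR.

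The 18 libraries form 3 groups of 6. In the IR-Ori group the portal triad was clamped for 1 h, making about 70% of the liver ischemic, the liver was reperfused for 6 h, and the mice were given oridonin, a diterpenoid of the herb Isodon rubescens. The IR group had the same clamping and reperfusion without oridonin. Sham mice were anaesthetised and had a laparotomy without clamping. All mice were wild-type C57BL/6, and neither the age of the mice nor the dose, route and time of oridonin is given in the sources used here. Whether each library is a separate animal is not stated, and p-values thus reflect only library-to-library spread, which may be technical.

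Cholesterol is built from acetyl-CoA through mevalonate, the isoprenoid diphosphates, squalene and lanosterol. When the endoplasmic reticulum holds little sterol, SCAP escorts the transcription factor SREBP2 (gene Srebf2) to the Golgi for cleavage, and the cleaved factor raises the synthesis genes as a group. INSIG1 and INSIG2 hold SCAP back when sterol is plentiful, and Insig1 is itself an SREBP2 target. Liver X receptors, activated by oxysterols, raise efflux transporters such as ABCA1, ABCG1, ABCG5 and ABCG8 and the ubiquitin ligase MYLIP. The liver is a main site of synthesis and the route by which cholesterol leaves the body in bile.

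Promoter sequence was not used to choose the genes. SREBP2 binds sterol regulatory elements next to the factor NF-Y, which binds CCAAT boxes. RefSeq promoter windows on the build GRCm38.p6, from 250 bases before to 50 bases after each start, were found for 27 of the 34 genes. The sterol regulatory element was searched as TCACNCCAC and the NF-Y box as CCAAT, both on either strand, and no match of one overlapped a match of the other in these genes. CCAAT lay in the windows of 23 of the 27 genes (85.2%), against 41.1% of all 27025 genes with a window. It lay in those of 15 of 16 synthesis enzymes and 8 of 11 other genes. TCACNCCAC lay in 1 of the 27 (3.70%), against 1.44% of all genes, and that 1 was Hmgcs1. The liver X receptor element, searched as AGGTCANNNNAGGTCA, lay in 0 of the 27 windows and in 4 of 27025. A match is a run of letters and not a site shown to be bound, and these short windows say nothing of elements elsewhere. Other spellings of the elements were not searched, so a window without a match may still hold one. The 250 bases before the start are shown for Hmgcs1, which holds the one TCACNCCAC match, and for Mvk, the gene with most CCAAT boxes among these. Also shown are Nsdhl, a later enzyme of the pathway, and Insig1, the SREBP2 target among the regulators. Capitals mark TCACNCCAC and CCAAT, or ATTGG where the box lies on the other strand.
Hmgcs1 (chr13:119690101-119690350, plus strand): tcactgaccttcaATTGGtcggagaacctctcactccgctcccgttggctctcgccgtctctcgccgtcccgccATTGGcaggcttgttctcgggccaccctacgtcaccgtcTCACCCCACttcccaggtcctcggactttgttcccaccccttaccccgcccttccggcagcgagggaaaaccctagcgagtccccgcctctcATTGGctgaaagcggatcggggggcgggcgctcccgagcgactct
Mvk (chr5:114444019-114444268, plus strand): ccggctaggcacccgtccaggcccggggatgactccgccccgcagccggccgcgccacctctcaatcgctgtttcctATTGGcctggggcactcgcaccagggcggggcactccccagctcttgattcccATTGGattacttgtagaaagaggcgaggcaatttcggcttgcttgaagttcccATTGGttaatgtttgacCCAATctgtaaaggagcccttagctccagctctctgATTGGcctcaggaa
Nsdhl (chrX:72918271-72918520, plus strand): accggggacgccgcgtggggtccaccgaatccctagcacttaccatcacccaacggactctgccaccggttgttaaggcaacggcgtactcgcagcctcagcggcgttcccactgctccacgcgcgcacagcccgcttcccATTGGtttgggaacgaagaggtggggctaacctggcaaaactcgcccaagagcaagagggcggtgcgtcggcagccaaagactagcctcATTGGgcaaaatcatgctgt
Insig1 (chr5:28071162-28071411, plus strand): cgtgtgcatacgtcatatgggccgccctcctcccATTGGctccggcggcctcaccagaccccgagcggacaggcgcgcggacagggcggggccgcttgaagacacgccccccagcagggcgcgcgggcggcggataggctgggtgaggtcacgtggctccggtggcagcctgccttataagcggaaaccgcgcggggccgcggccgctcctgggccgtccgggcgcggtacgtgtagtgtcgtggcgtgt
The Mvk sequence holds 5 boxes, and that of Hmgcs1 holds 3 boxes and the TCACNCCAC match. Nsdhl has 2 boxes and Insig1 has 1.

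Library totals ran from 12449529 to 19798188 counts. Genes of the mitochondrial chromosome took 6.52% to 42.9% of them. The mean share was 27.1 ± 6.60% in IR-Ori, 19.2 ± 12.99% in IR and 21.9 ± 12.9% in sham (SD, n = 6 each), and no pair of groups passed (exact two-sided permutation p = 0.212 for IR-Ori against IR, 0.712 for IR against sham and 0.370 for IR-Ori against sham). The share was under 15% in IR-Ori 5, in IR 4, 5 and 6, and in sham 1, 3 and 4. Over 11102 nuclear genes, the library nearest by rank correlation lay in another group for 7 of 18. In 3 cases the nearness was mutual, between IR-Ori 1 and sham 2 (Spearman rho 0.966), IR-Ori 5 and sham 4 (0.988), and IR-Ori 6 and sham 5 (0.983), and sham 3 was also nearest to IR-Ori 5. The labels are used as given, and 0 pairs of libraries were identical. Results are therefore also given without IR-Ori 1, 5 and 6, and without sham 2, 4 and 5. These libraries were picked from their expression values after the data were seen, so that leaving them out moves IR-Ori and sham apart by construction. Calls between those groups without them are given as values and not as support. Leaving them out can also shift IR-Ori or sham against IR, so results against IR without them are likewise only values. Of 10 hepatocyte markers, 0 were listed at 0 in any group, and their summed level was 28392 to 44775 FPKM (fragments per kilobase of exon, scaled to library total) in IR-Ori, 25028 to 35690 FPKM in IR and 15262 to 51825 FPKM in sham.

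**Figure D1:**
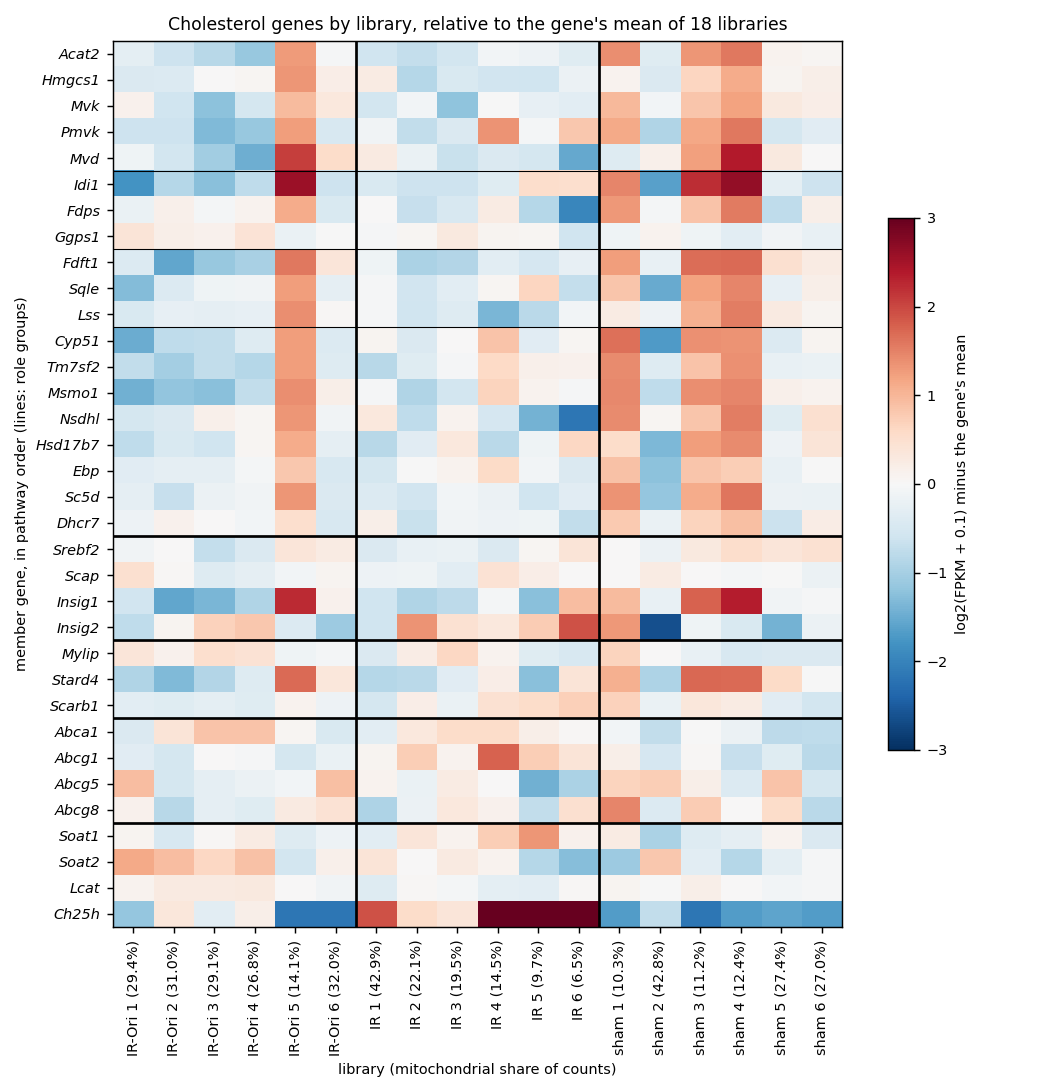
Each row is a gene and each column a library, with its mitochondrial share of counts. Colour is log2(FPKM + 0.1) minus the gene's mean over 18 libraries, and values past 3 in size, as for Ch25h, are drawn at the end of the scale. Most of the enzyme block is red in IR-Ori 5 and in sham 1, 3 and 4, the libraries outside IR with a share under 15%.

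The comparison of IR with sham asks what clamping and reperfusion do to these genes. The synthesis enzymes Acat2, Mvk and Fdft1 fell past the threshold of an adjusted p under 0.05 (edgeR). Ch25h and Abcg1 rose. Of the 34 genes 3 fell, when 2.36% of all genes tested fell, and 2 rose, when 5.52% of all genes rose. Of the 19 enzymes, 18 had a log2 fold change below 0, as had 49.8% of all genes tested, and 10 had an unadjusted p under 0.05 in that direction, as had 9.87% of all genes. The median was -0.95 over the enzymes and 0.00 over all genes tested. The enzymes varied together around their group means, so these counts are not of 19 separate observations. In bulk liver RNA, fewer cells of a type and less RNA per cell cannot be told apart.

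At the entry to the pathway, Acat2 encodes the cytosolic thiolase that joins acetyl-CoA units (GRCm39 chromosome 17, 13161777 to 13179634, minus strand). It was at 5.11, 6.18 and 8.02 FPKM in IR (lowest, median and highest of 6) and at 6.53, 15.2 and 25.6 FPKM in sham. Sham 1, 3 and 4 lay above 21 FPKM and the other sham libraries within or just above the IR range, so the groups overlapped. It fell by 1.33 ± 0.38 on the log2 scale (SE, edgeR adjusted p = 0.0367, n = 6 each). Acat3, a close paralog on the same chromosome, had a log2 fold change of -0.23 ± 0.20 (adjusted p = 0.522). How reads divide between the 2 genes is uncertain.

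Mvk encodes mevalonate kinase (chromosome 5, 114582330 to 114598652, plus strand). It was at 0.48, 1.01 and 1.23 FPKM in IR and at 1.17, 1.93 and 3.01 FPKM in sham. The 3 highest sham libraries were again sham 1, 3 and 4, and only sham 2, at 1.17 FPKM, lay within the IR range. It fell by 1.14 ± 0.34 (SE of the log2 fold change, edgeR adjusted p = 0.0467). Mmab, an enzyme of vitamin B12 handling chosen here after its values were seen, starts 242 bases away on the opposite strand, so that nearly all of the Mvk sequence shown above lies between both genes. Mmab fell by 1.46 ± 0.29 on the log2 scale in IR against sham (edgeR adjusted p = 0.00557).

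Fdft1 encodes squalene synthase, the first enzyme committed to sterols (chromosome 14, 63382599 to 63417027, minus strand). It was at 5.60, 8.23 and 10 FPKM in IR and at 9.43, 20.8 and 35.9 FPKM in sham. One sham library, sham 2, overlapped IR. It fell by 1.53 ± 0.46 (SE of the log2 fold change, edgeR adjusted p = 0.0483). Its gene overlaps the more abundant Ctsb on the opposite strand by 774 bases, and whether counting used strand is not given in the sources used here. Ctsb itself had a log2 fold change of 0.29 ± 0.33 in the same comparison.

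Among the enzymes that did not pass, Nsdhl, a dehydrogenase that takes part in removing methyl groups from the sterol ring, was at 1.94, 5.77 and 11.2 FPKM in IR and at 7.02, 14.4 and 26.1 FPKM in sham (log2 fold change -1.34 ± 0.44, edgeR adjusted p = 0.0674). Fdps, farnesyl diphosphate synthase, was at 2.39, 6.34 and 11.2 FPKM in IR and at 5.59, 13.9 and 28.0 FPKM in sham (-1.23 ± 0.40, adjusted p = 0.0629). The groups overlapped for both. The largest difference of the 19 was that of Idi1, isopentenyl diphosphate isomerase, at -1.55 ± 0.77 (adjusted p = 0.229). Ggps1, which makes geranylgeranyl diphosphate and feeds protein prenylation, was the one enzyme above 0, at 0.06 ± 0.16. With DESeq2 on the same genes 7 enzymes fell, namely Acat2, Mvk, Fdps, Fdft1, Lss, Nsdhl and Sc5d, when 4.84% of all genes fell with DESeq2.

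**Figure D2:**
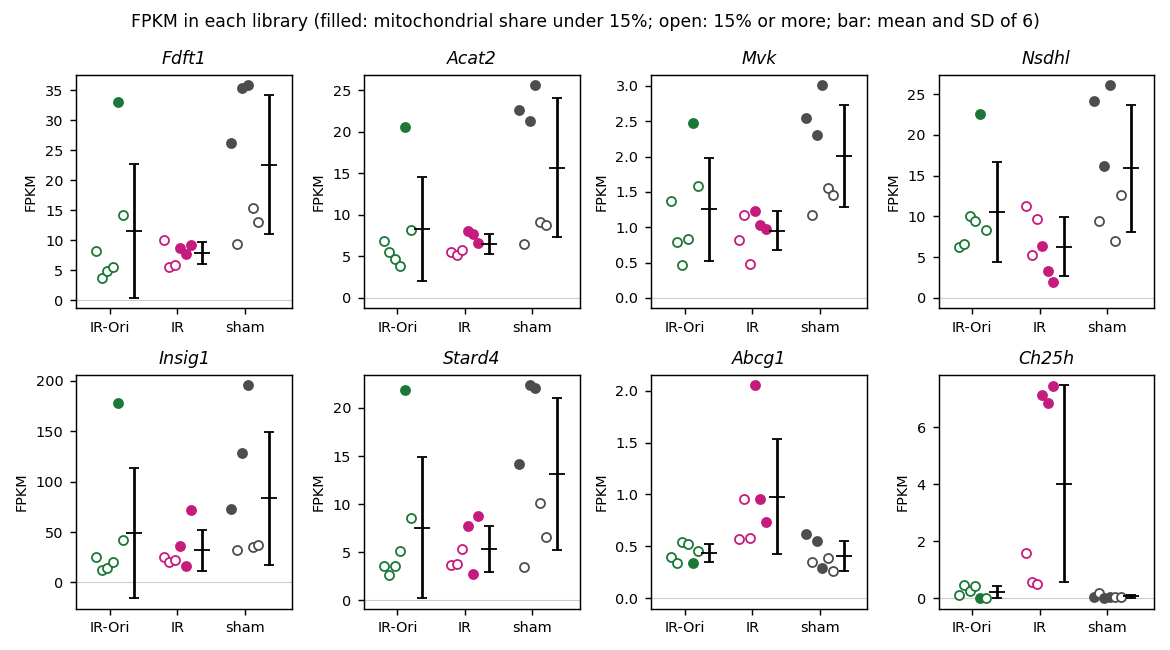
Points are FPKM of single libraries for 8 genes in IR-Ori, IR and sham, filled where the mitochondrial share is under 15%. Bars give the mean and SD of 6 libraries. For Fdft1, Acat2 and Mvk the filled points of IR-Ori and sham lie above all IR points, and for Ch25h the filled IR points lie near 7 FPKM.

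The enzymes' log2 fold changes in IR against sham lay further below 0 in libraries with a small mitochondrial share, and no enzyme passed the test of that difference. Among the 3 libraries of each group with a share under 15%, 14 of 19 enzymes fell in IR against sham (edgeR adjusted over 14149 genes, of which 4.11% fell and 7.46% rose), and the median log2 fold change was -1.28. Among the 3 and 3 libraries with a share of 15% or more, 0 of 19 passed (0% of all genes fell and 0.0943% rose), 1 had an unadjusted p under 0.05 below 0, as had 6.3% of all genes, and 7 lay above 0 and 12 below. In the first set the FPKM of 16 of 19 enzymes were lower in all 3 IR than in all 3 sham libraries, as were those of 12.9% of all genes, and in the second set those of 1 enzyme, as were 7.12% of all genes. The difference between the 2 sets was tested in a fit chosen after the data were seen, with a mean for each group and share class. It lay below 0 for all 19 enzymes with a median of -1.24 (0.00 over all genes), none passed the adjusted threshold (0.00685% of all genes did below 0 and 0.0274% above), and 13 had an unadjusted p under 0.05, as had 5.02% of all genes in that direction.

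Nsdhl fell by 2.67 ± 0.41 on the log2 scale in IR against sham among the libraries with a share under 15% (edgeR adjusted p = 0.00940). Its level there was 1.94 to 6.31 FPKM in IR and 16.2 to 26.1 FPKM in sham. Sc5d, the lathosterol desaturase, was at 24.9 to 33.5 FPKM in IR and at 82.2 to 114.9 FPKM in sham in those libraries, and fell by 1.83 ± 0.28 (adjusted p = 0.00952). Dhcr7, the last reductase of one branch of the pathway, fell by 1.26 ± 0.19 (adjusted p = 0.00940). Enzymes without a call in these libraries were Hmgcs1, Pmvk, Ggps1, Hsd17b7 and Ebp.

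Within sham, 12 of 19 enzymes were higher in the libraries with a share under 15% than in the others in that same fit (10.3% of all genes were higher), and Insig1, Stard4 and Scarb1 were higher with them. Soat2 was lower, by -1.04 ± 0.36 (edgeR adjusted p = 0.0491), as were 8.29% of all genes. Idi1 differed most, by 3.02 ± 0.44 on the log2 scale (edgeR adjusted p = 0.00103). Within IR, 1 enzyme was higher (11.8% of all genes) and 1 was lower (8.59% of all genes), and Ch25h and Scarb1 were higher. The higher enzyme was Pmvk, phosphomevalonate kinase, by 1.08 ± 0.36, and the lower one was Nsdhl, by -1.41 ± 0.41. Of sham 1, 3 and 4, both sham 3 and sham 4 have IR-Ori 5 as their nearest library. IR-Ori has 1 library with a share under 15%, so its group cannot be divided in this way.

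**Figure D3:**
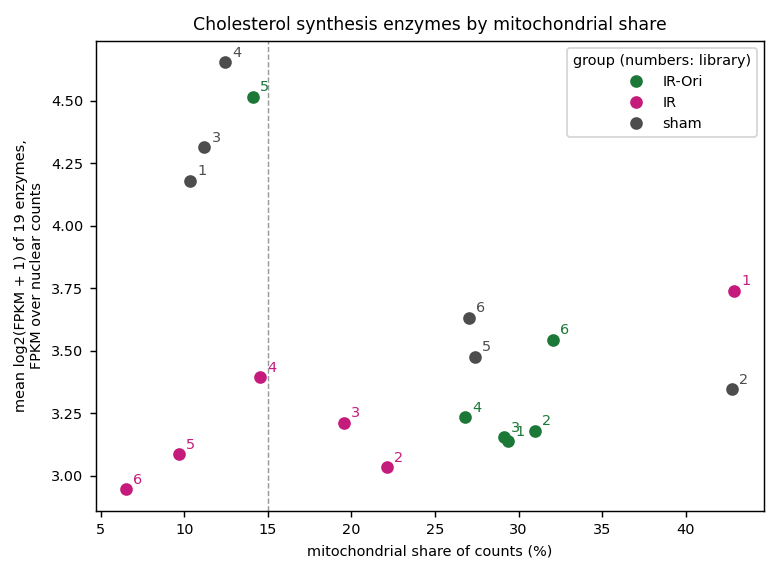
The mean log2(FPKM + 1) of the 19 enzymes, with FPKM set over nuclear counts alone, is drawn against the mitochondrial share of each library, and numbers name the library within its group. Left of the dashed line at 15%, IR-Ori 5 is at 4.52 and the IR libraries at 2.95 to 3.40, while the sham libraries are at 4.18 to 4.65.

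The mean of log2(FPKM + 1) over the 19 enzymes puts a single value on each library and was not tested. Set over nuclear counts, so that the mitochondrial share does not lower it by construction, it was 3.14 to 4.52 in IR-Ori, 2.95 to 3.74 in IR and 3.35 to 4.65 in sham. IR-Ori 5 was at 4.52, and the other 5 IR-Ori libraries were at 3.14 to 3.54. The sham libraries with a share of 15% or more, at 3.35 to 3.63, lay within the range of IR, sham 5 and sham 6 only through IR 1. That library, with a share of 42.9%, was at 3.74, and the other IR libraries were at 2.95 to 3.40. Sham 5 at 3.48 and sham 6 at 3.63 lay above all of those others, and sham 2 at 3.35 did not.

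The SREBP2 genes themselves showed no call in IR against sham. Srebf2, the factor's own gene, was at 2.90, 3.41 and 5.18 FPKM in IR and at 3.51, 4.99 and 5.75 FPKM in sham (log2 fold change -0.44 ± 0.21, edgeR adjusted p = 0.209). Scap was at 5.97, 7.17 and 10.2 FPKM in IR and at 6.64, 7.5 and 8.92 FPKM in sham, a log2 fold change of -0.05 ± 0.16. Both pairs of ranges overlapped widely. Insig1 was at 15.9, 23.5 and 71.6 FPKM in IR and at 32.6, 55.0 and 196 FPKM in sham. It differed by -1.37 ± 0.64 on the log2 scale (adjusted p = 0.195), and IR 6, its highest IR library, lay above 3 sham libraries. Insig2, the second retention protein, which is under separate control in liver, was at 22.5, 52.2 and 127.9 FPKM in IR and at 5.33, 27.5 and 83.2 FPKM in sham, a log2 fold change of 0.96 ± 0.53 (adjusted p = 0.278).

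Ch25h and Abcg1 moved the other way. Ch25h makes the oxysterol 25-hydroxycholesterol and is known as an interferon-induced gene of macrophages (chromosome 19, 34451178 to 34452564, minus strand). It was at 0.48, 4.22 and 7.45 FPKM in IR and at 0.00, 0.04 and 0.17 FPKM in sham. The IR libraries held 10 to 162 counts and the sham libraries 0 to 3. No value overlapped, as for 2.04% of all genes with higher values in IR. Outside IR no library reached 10 counts, the minimum of the count filter, so Ch25h entered the test through the group where it was high. Its calls and its lack of overlap carry that selection. The fitted rise was 6.01 ± 0.94 on the log2 scale (edgeR adjusted p = 0.00122), and with 7 counts in all 6 sham libraries its size is poorly fixed. IR 4, 5 and 6 were at 6.84 to 7.45 FPKM and IR 1, 2 and 3 at 0.48 to 1.59 FPKM. The fitted rise among the libraries with a share under 15% was 7.73 ± 0.58 (edgeR adjusted p = 0.00307). Sham 1, 3 and 4 held 1, 0 and 1 counts, so the size of this rise is less well fixed than that SE.

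Abcg1, an exporter of cholesterol to high-density lipoprotein and a liver X receptor target, was at 0.57, 0.85 and 2.05 FPKM in IR and at 0.26, 0.37 and 0.62 FPKM in sham. IR 4 stood apart at 2.05 FPKM, and sham 1 overlapped the lower IR libraries. The rise was 1.15 ± 0.29 (SE of the log2 fold change, edgeR adjusted p = 0.0214), and without IR 4 it was 0.81 (adjusted p = 0.0746). Leaving out sham 4, 5 or 6 also ended this call. The other efflux and esterification genes had no call. Abca1, the transporter that loads cholesterol onto apolipoprotein A-I, had a log2 fold change of 0.56 ± 0.26 (adjusted p = 0.187). Abcg5 and Abcg8, the 2 subunits of the biliary sterol exporter, were at -0.62 ± 0.34 and -0.57 ± 0.34. These 2 genes overlap on opposite strands by 6710 bases, so their counts are uncertain. Soat1 and Soat2, which make cholesteryl esters inside cells, were at 0.79 ± 0.29 and 0.02 ± 0.36, and Lcat, which esterifies cholesterol in plasma, at -0.23 ± 0.17.

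Of uptake and transport genes, Stard4, a soluble carrier that moves cholesterol between membranes and an SREBP2 target, was at 2.77, 4.54 and 8.79 FPKM in IR and at 3.48, 12.1 and 22.3 FPKM in sham, with overlap (log2 fold change -1.31 ± 0.51, edgeR adjusted p = 0.121). Mylip, which directs lipoprotein receptors to degradation, was at 0.01 ± 0.25, and Scarb1, the receptor for high-density lipoprotein, at 0.10 ± 0.22.

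Many markers of recruited myeloid cells were also higher in IR than in sham, when 5.52% of all genes rose. Few or none were among those of other cell types. Of 10 monocyte and recruited macrophage markers 9 were tested, and 6 were higher in IR than in sham. The 10 are Ccr2, Ly6c2, Itgam, Chil3, F13a1, Lyz2, S100a4, Fn1, Cx3cr1 and Plac8. Over the 9 tested, the median log2 fold change was 1.84. The summed level of the 10 was 120.7 to 181.6 FPKM in IR and 60.3 to 129.2 FPKM in sham, with 0 of the 10 listed at 0 throughout a group. Within IR it was 120.72, 166.0 and 140.45 FPKM in IR 1, 2 and 3. In IR 4, 5 and 6 it was 166.67, 166.65 and 181.59 FPKM. A sum weighs the most abundant markers most. Of 10 neutrophil markers 8 were tested and 8 were higher, with sums of 69.6 to 315.1 FPKM in IR and 3.94 to 26.8 FPKM in sham. Of 10 resident Kupffer cell markers, 0 passed. Of 10 sinusoidal endothelial markers 3 were higher, with sums of 39.8 to 76.5 FPKM in IR and 23.3 to 58.6 FPKM in sham. Of 10 stellate cell and fibroblast markers 1 was higher, and so was 1 of 6 tested cholangiocyte markers. The median log2 fold changes of these 2 lists were -0.14 and 0.27. No endothelial, stellate cell or cholangiocyte marker was lower. Of 10 hepatocyte, 4 B cell, 2 T and NK cell and 5 erythroid markers tested, 0 passed. Their median log2 fold changes were -0.30, -1.40, -0.31 and 0.96. The part of any of these cell types in the rise of Ch25h and Abcg1 was not tested.

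The lower calls in this comparison and that of Abcg1 were lost without single libraries. Leaving out 1 library at a time, 0 to 8 of the 34 genes fell. None fell without sham 1, sham 3 or sham 4, nor without any of IR 2 to IR 6. The count was 8 without IR 1, 6 without sham 2, 6 without IR-Ori 5 and 1 without IR-Ori 1. The call of Ch25h held in each of these 18 fits, which it entered through its counts in IR. With limma on log2(FPKM + 1) or log2(FPKM + 0.1), 0 of the 31 genes tested passed in either direction, and 9 enzymes had an unadjusted p under 0.05 below 0 with either, as had 8.41% of all genes. Ch25h, Abcg1 and Soat1 had 1 FPKM in too few libraries to enter the limma fits, which therefore say nothing of their calls. Without sham 2, 4 and 5 together 0 of the 34 genes passed in either direction (edgeR), and the log2 fold change of Ch25h was 6.79 (adjusted p = 0.0502). In that fit 0.0647% of all genes fell and 0.194% rose past the adjusted threshold. At an unadjusted p under 0.05, 14 enzymes were below 0, as were 8.68% of all genes.

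The comparison of IR-Ori with IR asks what oridonin does in the reperfused liver. Ch25h and Abcg1 were lower in IR-Ori, and no enzyme passed. Of the 34 genes 2 fell, when 3.01% of all genes fell, and 0 rose (edgeR, 0 with DESeq2), when 0.596% of all genes rose. At an unadjusted p under 0.05, 0 of the 34 were above 0, against 9.81% of all genes. The IR libraries are shared with the comparison of IR and sham, so that the 2 sets of fold changes are not independent.

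Ch25h was at 0.00, 0.18 and 0.47 FPKM in IR-Ori and at 0.48, 4.22 and 7.45 FPKM in IR. No value overlapped (1.10% of all genes had lower values in all IR-Ori libraries), but IR-Ori 2 at 0.47 FPKM lay next to IR 3 at 0.48 FPKM. The IR-Ori libraries held 0 to 9 counts and 2 of them held 0. Here too Ch25h was tested through its counts in IR. It fell by 4.13 ± 0.81 on the log2 scale (edgeR adjusted p = 0.0109). Without IR-Ori 1, 5 and 6 the log2 fold change was -3.25 (edgeR adjusted p = 0.0851), and that of Abcg1 was -0.92 (adjusted p = 0.184). In that fit 0 of the 34 genes passed (edgeR), when 0.116% of all genes rose and 0.136% fell. That fit leaves out libraries picked for nearness to sham, which can move IR-Ori towards IR, so it does not test these calls. With the share as covariate Ch25h fell by 3.75 (adjusted p = 0.0300) and was the one of the 34 to pass, when 1.58% of all genes fell.

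Abcg1 was at 0.34, 0.43 and 0.54 FPKM in IR-Ori and at 0.57, 0.85 and 2.05 FPKM in IR, again with no overlap. It fell by 1.07 ± 0.29 (SE of the log2 fold change, edgeR adjusted p = 0.0467). This call is at the edge, since it was lost in 13 of the 18 fits that leave out 1 library, and without IR 4 it fell by 0.73 (adjusted p = 0.159). Those 13 libraries are IR 4, 5 and 6, all 6 of IR-Ori, and sham 3 to 6. Among libraries with a share of 15% or more its log2 fold change was -0.61 (adjusted p = 0.482), and Ch25h had too few counts there to be tested. Of the monocyte and recruited macrophage markers, 6 were lower and 0 higher in IR-Ori, when 3.01% of all genes fell. Their sums were 84.4 to 127.6 FPKM in IR-Ori and 120.7 to 181.6 FPKM in IR. Of the neutrophil markers, 2 were lower, with sums of 7.73 to 64.6 FPKM in IR-Ori and 69.6 to 315.1 FPKM in IR. Of 6 tested cholangiocyte markers 1 was lower, with sums of 11.8 to 36.8 FPKM in IR-Ori and 40.8 to 83.4 FPKM in IR, and 0 of the endothelial and 0 of the stellate cell markers passed. The part of these cells in the lower Ch25h and Abcg1 was not tested.

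Synthesis enzymes had a median log2 fold change of 0.41 in IR-Ori against IR, with 15 of 19 above 0, as had 50% of all genes, and none passed (0 at an unadjusted p under 0.05, 0 with DESeq2). Without IR-Ori 5 alone, 9 lay above 0 and 10 below, with a median of -0.09, and in the other 17 fits that leave out 1 library 14 to 17 lay above 0. At an unadjusted p under 0.05, 5 lay above 0 without IR 1 (13.9% of all genes) and 2 without IR-Ori 1 (8.09% of all genes). IR-Ori 5 was the highest of its group for 18 of 19 enzymes. Fdft1 was at 33.1 FPKM in IR-Ori 5 and at 3.66 to 14.1 FPKM in the other IR-Ori libraries, while IR ranged from 5.60 to 10 FPKM. Hmgcs1, the synthase that makes hydroxymethylglutaryl-CoA, was at 105.0 FPKM in IR-Ori 5, at 31.0 to 48.3 FPKM in the other 5, and at 23.3 to 49.7 FPKM in IR. Without IR-Ori 1, 5 and 6, 7 of 19 enzymes lay above 0 and the median was -0.13, with a median of -0.06 over all genes. Fdft1 then differed by -0.69 and Insig1 by -0.97. The libraries left out were picked for nearness to sham, which can move IR-Ori towards IR, so that fit is no test of the enzymes. Among libraries with a share of 15% or more, 5 IR-Ori and 3 IR, 8 enzymes lay above 0 and 11 below with a median of -0.11, and 0 of the 33 genes tested passed (edgeR, 1 at an unadjusted p under 0.05, when 0.101% of all genes fell and 0% rose past the adjusted threshold).

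The remaining named enzymes overlapped between IR-Ori and IR. Acat2 was at 3.83, 6.19 and 20.6 FPKM in IR-Ori and at 5.11, 6.18 and 8.02 FPKM in IR, a log2 fold change of 0.41 ± 0.38. Mvk was at 0.47, 1.10 and 2.48 FPKM in IR-Ori and at 0.48, 1.01 and 1.23 FPKM in IR, a log2 fold change of 0.44 ± 0.34. Nsdhl was at 6.26, 8.87 and 22.6 FPKM in IR-Ori and at 1.94, 5.77 and 11.2 FPKM in IR (0.73 ± 0.44, edgeR adjusted p = 0.301). The medians of Acat2 and Mvk in the 2 groups lay within 0.1 FPKM of each other, and each gene's highest IR-Ori value was that of IR-Ori 5.

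Insig1 was at 12.8, 22.7 and 178.6 FPKM in IR-Ori and at 15.9, 23.5 and 71.6 FPKM in IR. Its log2 fold change was 0.59 ± 0.63 (edgeR adjusted p = 0.568), with IR-Ori 5 at 178.6 FPKM and IR-Ori 6 next at 41.7 FPKM. Insig2 was at 15.9, 30.6 and 59.5 FPKM in IR-Ori, a log2 fold change of -0.79 ± 0.52 against IR. Srebf2 and Scap differed by 0.09 ± 0.21 and 0.02 ± 0.16. Stard4 was at 2.61, 4.34 and 21.9 FPKM in IR-Ori, a log2 fold change of 0.52 ± 0.50. Soat2, the hepatocyte enzyme of cholesteryl ester formation, was at 16.0, 39.7 and 51.6 FPKM in IR-Ori and at 9.57, 24.5 and 30.7 FPKM in IR (0.74 ± 0.36, adjusted p = 0.214).

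**Figure D4:**
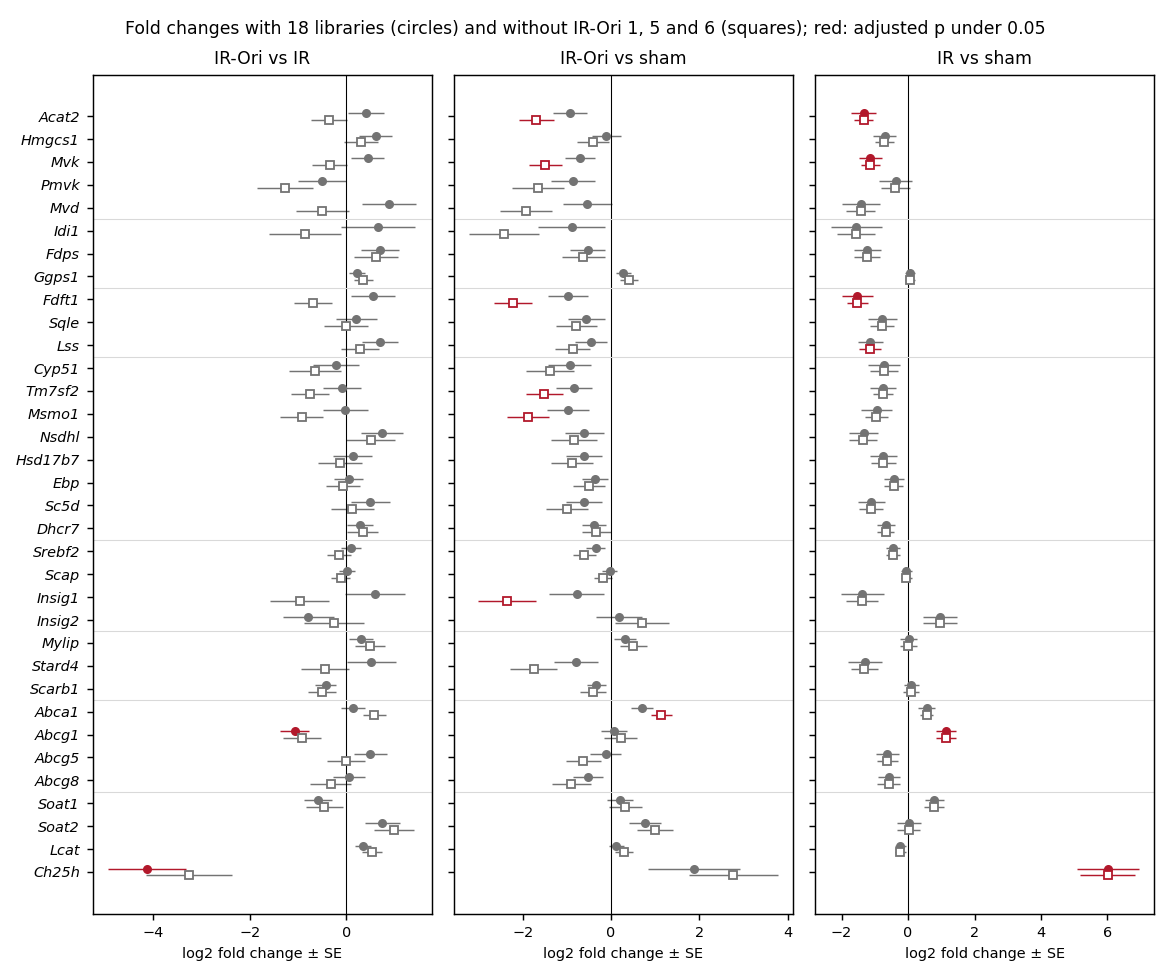
Log2 fold changes with their SE are drawn for the 34 genes in pathway order. Circles use 18 libraries and squares leave out IR-Ori 1, 5 and 6, with red for an adjusted p under 0.05. In IR-Ori against sham there is no red circle, and 7 squares are red, in a fit whose left-out libraries were picked for their nearness to sham.

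The comparison of IR-Ori with sham asks how far treated, reperfused liver differed from unclamped liver. None of the 34 genes passed with 18 libraries (edgeR), and 0% of all genes passed in either direction. At an unadjusted p under 0.05, 3 enzymes were below 0, namely Acat2, Fdft1 and Tm7sf2, and 2 genes were above 0, namely Abca1 and Soat2, when 3.66% and 6.34% of all genes were. That count of enzymes moved with single libraries. It was 15 without IR-Ori 5 (12.9% of all genes), with a median log2 fold change of -1.01 over the 19, 10 without sham 2 (11.9% of all genes), 0 without sham 1 or sham 4, and 1 to 7 without any one of the others. DESeq2 called 0 of the 34 and 38 of all genes. Of the 19 enzymes 18 lay below 0, as did 51.1% of all genes, with a median of -0.61 (-0.01 over all genes).

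IR-Ori 1, 5 and 6, each nearest to a sham library, were left out in a fit chosen after the data were seen. That choice by itself enlarges the difference from sham, so the p-values of this fit are too small. FPKM ranges of IR-Ori without those libraries lie apart from sham in part by the same choice. In it 6 of the 34 genes fell, when 1.9% of all genes fell, and 1 rose, when 2.52% rose. Fdft1 fell by 2.22 ± 0.43 on the log2 scale (edgeR adjusted p = 0.0104). It was at 3.66, 4.89 and 5.52 FPKM in IR-Ori 2, 3 and 4 and at 9.43 to 35.9 FPKM in sham. Acat2 fell by 1.69 ± 0.39 (adjusted p = 0.0238), with 3.83 to 5.49 FPKM in those 3 libraries. Mvk fell by 1.49 ± 0.38 and Insig1 fell by 2.35 ± 0.65 (adjusted p = 0.0357 and 0.0497). Msmo1, the sterol methyl oxidase, fell by 1.88 ± 0.47, and Tm7sf2, a sterol reductase, fell by 1.51 ± 0.41. Abca1 rose by 1.13 ± 0.24 (adjusted p = 0.0139), with 26.6 to 36.7 FPKM in IR-Ori 2, 3 and 4 and 11.9 to 20.1 FPKM in sham. These 3 libraries all have a share of 15% or more. Among libraries with such a share, 5 IR-Ori and 3 sham, 0 of the 33 genes tested passed (edgeR), Ch25h having too few counts, and 3 enzymes had an unadjusted p under 0.05 below 0, as had 2.67% of all genes.

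With 18 libraries, Fdft1 was at 3.66, 6.86 and 33.1 FPKM in IR-Ori and at 9.43, 20.8 and 35.9 FPKM in sham, a log2 fold change of -0.97 ± 0.46 (edgeR adjusted p = 0.498). Abca1 was at 14.8, 23.8 and 36.7 FPKM in IR-Ori and at 11.9, 15.1 and 20.1 FPKM in sham (0.70 ± 0.26, adjusted p = 0.486). The groups overlapped for both genes. Ch25h had 25 counts over the 6 IR-Ori libraries and 7 over the 6 sham libraries, a fitted log2 fold change of 1.88 ± 1.04 (adjusted p = 0.501). Abcg1 had a log2 fold change of 0.07 ± 0.29, at a mean of 0.43 ± 0.09 FPKM in IR-Ori and 0.41 ± 0.14 FPKM in sham (SD, n = 6 each).

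Within groups, 14 of the 34 genes fell and 2 rose with an increasing mitochondrial share (edgeR fit with group, adjusted over 14579 nuclear genes, of which 23% fell and 19.8% rose). Those that fell were 9 enzymes with Insig1, Insig2, Stard4, Scarb1 and Abcg8. Idi1 changed by -0.90 ± 0.22 and Pmvk by -0.52 ± 0.15 on the log2 scale for each 10 points of share. Soat2 changed by 0.52 ± 0.08 (adjusted p = 8.90e-05) and Ggps1 by 0.15 ± 0.05 (adjusted p = 0.0206), both higher with the share. With the share as a covariate, Acat2, Mvk and Fdft1 fell and Abcg1 and Ch25h rose in IR against sham as before, when 4.92% of all genes fell and 7.93% rose.

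The enzymes varied together around their group means. Over the 18 libraries, Spearman's rho between residuals of log2 TMM-scaled CPM was above 0 in 156 of 171 pairs of enzymes with a median of 0.59. The median between these enzymes and all other genes was -0.01. With the share also removed the median over the enzyme pairs was 0.54. Cyp51, lanosterol demethylase, had the highest median with the other enzymes, at 0.75, and Ggps1 the lowest, at -0.35. Outside the enzymes, Stard4 and Insig1 had medians of 0.71, Srebf2 of 0.36, Scap of -0.10 and Soat2 of -0.45. These values are a description, since the libraries share depth, mitochondrial share and the libraries that stand apart.

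On a per-length scale and as a mean over 18 libraries, Lcat was the most abundant of the 34 at 181.3 FPKM and Soat1 the least at 0.38 FPKM. Among the enzymes, Ebp, the sterol isomerase, was the most abundant at 56.7 FPKM, followed by Hmgcs1 at 45.8 and Sc5d at 44.3 FPKM, and Mvk was the least at 1.40 FPKM. The highest library exceeded the lowest 28.1-fold for Idi1, 24.0-fold for Insig2, 16.3-fold for Mvd and 15.3-fold for Insig1. That ratio was 1.61 for Lcat, 1.82 for Scap and 2.05 for Ggps1.

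Genes around the pathway showed few calls. Of 11 further sterol synthesis cofactors and SREBP2 targets, 1 passed. This was Tlcd1, a membrane lipid protein, at 9.40 ± 2.10 FPKM in IR-Ori, 4.70 ± 0.98 FPKM in IR and 10.9 ± 2.54 FPKM in sham (SD, n = 6 each). It rose by 1.01 ± 0.21 on the log2 scale in IR-Ori against IR (edgeR adjusted p = 0.0153) and fell by 1.26 ± 0.22 in IR against sham (adjusted p = 0.00231). The median log2 fold change of those 11 in IR against sham was -0.47. None passed in any comparison among 12 genes of SREBP processing and sterol-regulated degradation, 6 liver X receptors and partners, 17 genes of lysosomal release and membrane transfer, and 4 of oxysterol and bile acid routes (edgeR).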

How the data were processed

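Liver RNA of 18 libraries was sequenced, 6 each from IR-Ori, IR and sham mice, after preparation with the VAHTS Universal V8 kit, per the labels' protocols. Per the submitters' processing notes, cutadapt 1.9.1, HISAT2 2.2.1, DESeq2 and the build GRCm39 were used, while counting tool, annotation and strand setting are not given there. The authors deposited raw counts per gene and FPKM in 1 table of 56691 genes. The deposited FPKM equalled count, exonic size and library total, mitochondrial genes included, within 0.0051 for 100% of values, so that a large mitochondrial share lowers every other FPKM. Totals ran from 12449529 to 19798188 counts, and intervals from them would cover counting error only.

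The deposited counts were fitted with edgeR 4.0.16 in R 4.3.3 (quasi-likelihood test, two-sided, filterByExpr with a minimum of 10 counts and 15 in total, TMM, 1 fit of 18 libraries, 15 residual degrees of freedom, common biological coefficient of variation 0.398). P-values were adjusted by Benjamini-Hochberg over 14595 genes, with a threshold of 0.05. Errors of fold changes are SE, taken as the fold change over the square root of the test's F statistic. FPKM are given as deposited, for the lowest, median and highest library. A second fit with group gave the slope of the mitochondrial share. Alternatives were DESeq2 1.42.0, RLE factors, no filter, mitochondrial genes left out, the share as covariate, the replicate number as block, limma 3.58.1 on log2(FPKM + 1) and log2(FPKM + 0.1) of genes with at least 1 FPKM in at least 6 libraries, each library left out, and libraries under or over 15% share. Leaving out 3 IR-Ori or 3 sham libraries, and the fit with share classes, were added after seeing the data. The left-out libraries were those mutually nearest to one of the other group, a choice made on expression itself. The tests were tried on simulated counts with known changes.

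The members and lists were chosen with earlier results of these data known. Full values are given for members that passed in any comparison, for Srebf2, Scap, Insig1 and Insig2, and for the member with the smallest p in a role group where none passed. Other members are named as examples chosen after their values were seen. Promoter windows came from RefSeq on GRCm38.p6, a different build from that of the gene positions, which are GRCm39.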

Additional observations from a re-analysis of the deposited data

Results flagged for a closer look

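A library was listed when its gap to the nearest library of its group, divided by the range of the 6, exceeded Dixon's critical value for 6 samples. This held for 25 of 102 sets of 6 values, and chance lists about 1 in 20 sets if values are normally distributed. FPKM were taken without logs and need not be so distributed, and all 25 flags were of the highest library. The rate of 1 in 20 is therefore only a rough guide. The sets are not independent, since the same libraries enter each of them.

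IR-Ori 5 was the highest of its group in 18 of the 25. For the enzymes of the early pathway its levels were 20.61 FPKM for Acat2, 105.02 FPKM for Hmgcs1, 12.9 FPKM for Pmvk, 18.43 FPKM for Mvd, 8.36 FPKM for Idi1 and 20.62 FPKM for Fdps. From squalene to lanosterol they were 33.12 FPKM for Fdft1, 10.59 FPKM for Sqle and 8.49 FPKM for Lss. Beyond lanosterol they were 33.51 FPKM for Cyp51, 22.52 FPKM for Tm7sf2, 27.54 FPKM for Msmo1, 22.62 FPKM for Nsdhl, 14.38 FPKM for Hsd17b7, 92.53 FPKM for Ebp and 95.05 FPKM for Sc5d. Insig1 was at 178.59 FPKM and Stard4 at 21.9 FPKM in the same library. Its mitochondrial share, 14.1%, was the lowest of IR-Ori, and its nearest library was sham 4. The part of either in these levels was not tested.

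In IR, IR 4 stood apart for Cyp51 at 25.36 FPKM and for Abcg1 at 2.05 FPKM, and IR 6 for Insig1 at 71.55 FPKM. In sham, sham 4 stood apart for Mvd at 22.92 FPKM, sham 1 for Insig2 at 83.16 FPKM and for Mylip at 3.19 FPKM, and sham 2 for Ch25h at 0.17 FPKM, which is 3 counts.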

How the results depend on the processing

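Of the settings tried on single genes, 912 kept direction and side of the threshold, 75 lost a call, 14 gained one and 40 changed sign, the last only in differences that were not called. In IR-Ori against IR, 526 genes passed. The number was 1335 with DESeq2, 290 with the share as covariate, 163 with the replicate block, 133 and 104 with limma on log2(FPKM + 1) and log2(FPKM + 0.1), 15 among libraries of 15% share or more, 39 without IR-Ori 1, 5 and 6, and 152 to 1056 leaving out 1 library. The 2 members called lower became 1 with RLE factors, no filter, mitochondrial genes left out, the share as covariate or without sham 2, 4 and 5, 0 with the block, 15% share or more or without IR-Ori 1, 5 and 6, and 1 to 2 leaving out 1 library. In IR against sham, 1151 genes passed. The number was 1818 with DESeq2, 1875 with the covariate, 644 with the block, 594 and 602 with the limma fits, 14 among libraries of 15% share or more, 40 without sham 2, 4 and 5, and 581 to 1560 leaving out 1 library. The 2 members called higher became 1 with the block or under 15% share, 0 at 15% share or more or without sham 2, 4 and 5, and 1 to 2 leaving out 1 library. In both comparisons these 2 members are Ch25h and Abcg1. Neither had enough FPKM to enter the limma fits, where their count of 0 is no lost call, and Ch25h was not tested at 15% share or more. The 3 members called lower became 7 with DESeq2, 14 under 15% share, 0 with the block, both limma fits, 15% share or more or without sham 2, 4 and 5, and 0 to 8 leaving out 1 library. In IR-Ori against sham, 0 genes passed, against 38 with DESeq2 and 685 without IR-Ori 1, 5 and 6, when 1 member was higher and 6 were lower. Those 3 libraries were left out for their nearness to sham, which raises the number by construction and can also shift the counts against IR. With no filter, 1 member in place of 2 was higher with the share. The cause of these shifts was not tested, beyond the fewer libraries in some.

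Signs changed as follows. In IR-Ori against IR without IR-Ori 1, 5 and 6, log2 fold changes were -0.35 for Acat2, -0.34 for Mvk, -0.69 for Fdft1, -0.15 for Srebf2, -0.12 for Scap, -0.97 for Insig1 and -0.44 for Stard4. At 15% share or more they were -0.052 for Fdft1, -0.14 for Nsdhl and -7e-04 for Insig1. Scap was at -0.029 with the covariate and at -0.0275 and -0.0313 with the limma fits. In IR against sham Scap was at 0.0024 and 0.001 with limma and 0.12 under 15% share. In IR-Ori against sham Fdps was at 0.043 at 15% share or more, and Insig2 at -0.50 and Abcg1 at -0.18 without sham 2, 4 and 5. Leaving out 1 library, IR-Ori against IR ranged from -0.092 to 0.58 for Acat2, -0.10 to 0.77 for Fdft1, -0.48 to 1.07 for Insig1, -0.039 to 0.11 for Scap, -0.0041 to 0.27 for Srebf2 and -0.16 to 0.77 for Stard4. Scap ranged from -0.14 to 0.0055 in IR against sham. IR-Ori against sham ranged from -0.04 to 0.21 for Abcg1, -0.073 to 0.75 for Insig2 and -0.10 to 0.0077 for Scap.

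Replicate numbers were not taken to pair the libraries. Correlations of same-numbered deviations ran from 0.012 to 0.42 in IR-Ori against IR, -0.44 to 0.34 in IR against sham and -0.36 to 0.30 in IR-Ori against sham, and 3, 1 and 0 of 6 libraries correlated best with their own number. In IR-Ori against IR all were above 0 (mean 0.19, against -0.035 for other numbers), but not all were above 0.1, the least taken as pairing. Some pairing by number there is therefore not excluded, and with the replicate block 0 members were called lower in that comparison. IR-Ori has 1 library under 15% share, so no fit was made there. Ch25h rests on 0 to 9 counts a library outside IR, which limits the size of its fold changes.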
